A study of Mus musculus with 6 samples.

Results

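The genes described are 9 members of the HOXA and HOXB clusters, Hoxa5, Hoxa7, Hoxa9, Hoxa10, Hoxb2, Hoxb3, Hoxb4, Hoxb5 and Hoxb6, chosen by name from the 17068 genes of the deposited tables and followed across 11 clusters of haematopoietic stem cells (HSCs). Bone marrow of Gfp-Lc3 mice, whose transgene reports the autophagy protein LC3 by fluorescence, was sorted for HSCs, and the RNA of single cells was sequenced in droplets. All 6 libraries share that genotype. They came from a young mouse fed ad lib, a young mouse after a 24 hr fast, a young mouse after a 24 hr fast and 24 hr of refeeding, and 3 old mice under the same feeding conditions, with 1 mouse per library. The tables set each cluster against the remaining cells and merge the 6 libraries, so no value belongs to an age or a feeding group, none carries an error between animals, and the effect of fasting on these genes cannot be read from them.

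HOX genes encode transcription factors that bind DNA through a homeodomain and lie in clusters in which gene order follows the order of their use along the body axis. In blood they are most active in stem cells and early progenitors and are shut down as cells differentiate. Their proteins bind DNA with the cofactors PBX and MEIS, the MLL and menin complex keeps the clusters active, and Polycomb complexes silence them. Hoxa9 with its neighbours Hoxa7 and Hoxa10 supports progenitor growth and is the HOX gene most often activated in leukaemia, Hoxb4 expands HSCs when it is forced on, and a Hoxb5 reporter has been used to mark long-term HSCs.

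The number of cells per cluster could be solved from the deposited p-values and came to 22378 in all. It was 4904, 3955, 3910, 3802 and 3747 for clusters 0 to 4, 1188 for cluster 5, 310, 267, 173 and 112 for clusters 6 to 9, and 10 for cluster 10. Clusters 0 to 5 together made up 96.1% of the cells. Cells for which a total could be read (19 cells, each the only one with a given gene) had a median of 11707 counts, between 4239 and 22599. All 10 long-term HSC markers had counts in each of clusters 0 to 9. Their summed level lay between 13.0 (cluster 6) and 21.0 (cluster 2) per 10000 counts, and in cluster 6 all 10 lay below the other cells. The sums of different lists rest on different genes and do not by themselves establish a cell type. The summed level of 5 B cell markers was at most 0.406, that of 3 measured T cell markers at most 0.170, that of 7 mesenchymal stroma markers at most 0.492, that of 5 cycling markers at most 0.561 and that of 9 endothelial markers at most 2.18. Erythroid markers summed to 2.02 (cluster 8) to 10.9 (cluster 6), myeloid markers to 6.91 (cluster 8) to 13.7 (cluster 1) and megakaryocyte markers to 1.38 (cluster 8) to 2.45 (cluster 0). The authors clustered the cells on the same data, which makes every fold below a description of that grouping and not a test of it.

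All 9 members had counts in all 11 clusters, and all lay at or above the median level of all genes. A further 14 HOX protein genes were listed, 5 of HOXA, 3 of HOXB and 6 of HOXC, and of these 2 reached that median. No HOXD gene was among the rows used. The HOXA members lie on the minus strand of chromosome 6 and the HOXB members on the plus strand of chromosome 11 (mm10, GENCODE M21). Hoxa5 spans 52201754 to 52204587, Hoxa7 52214491 to 52221854, Hoxa9 52223100 to 52231089 and Hoxa10 52231197 to 52240854. Hoxb6 spans 96292476 to 96301569, Hoxb5 96303336 to 96306121, Hoxb4 96318267 to 96321638, Hoxb3 96323326 to 96347930 and Hoxb2 96350525 to 96354012. Hoxa5 lies within the longer model of Hoxa3 on the same strand. On the opposite strand Hoxaas3 overlaps Hoxa5 and Hoxa7, Hoxb5os overlaps Hoxb5 and Hoxb6, and Hoxb3os overlaps Hoxb2 and Hoxb3. The sources used here do not say how reads in such overlaps were counted, so the values of these 6 members and their partners are uncertain to that extent.

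Because all members lay below the rest of the cells in cluster 0, as described later, the 250 bases before the start site were read for the 5 members that have a row in the RefSeq promoter table used here (GRCm38.p6) and searched on both strands for 5 motifs. These were TGATNNAT, which HOX and PBX bind together, TGACAG, which MEIS binds, CCAAT, which the factor NF-Y binds, the E-box CACGTG and the TATA box TATAAA. The 4 windows shown contain no annotated exon, and matches are in capitals. They are Hoxa5 (chr6:52204588-52204837, minus strand), Hoxa9 (chr6:52227371-52227620, minus strand, within the longer Hoxa9 gene model), the Hoxa10 start nearer to its last exon (chr6:52234940-52235189, minus strand, within the longer Hoxa10 gene model) and Hoxb4 (chr11:96318017-96318266, plus strand).
Hoxa5: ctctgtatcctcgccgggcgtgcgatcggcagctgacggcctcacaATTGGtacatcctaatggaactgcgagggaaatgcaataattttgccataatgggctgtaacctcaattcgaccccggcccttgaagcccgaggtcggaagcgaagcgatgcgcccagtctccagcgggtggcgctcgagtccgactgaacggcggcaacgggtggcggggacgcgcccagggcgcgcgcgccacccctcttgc
Hoxa9: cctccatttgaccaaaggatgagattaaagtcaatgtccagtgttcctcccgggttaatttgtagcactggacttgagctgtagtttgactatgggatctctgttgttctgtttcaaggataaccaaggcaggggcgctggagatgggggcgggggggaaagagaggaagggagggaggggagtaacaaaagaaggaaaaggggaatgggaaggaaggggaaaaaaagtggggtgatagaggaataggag
Hoxa10: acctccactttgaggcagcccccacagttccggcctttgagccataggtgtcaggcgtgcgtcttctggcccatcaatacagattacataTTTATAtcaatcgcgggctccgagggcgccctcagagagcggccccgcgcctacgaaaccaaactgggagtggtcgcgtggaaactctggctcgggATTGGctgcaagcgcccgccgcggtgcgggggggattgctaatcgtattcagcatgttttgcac
Hoxb4: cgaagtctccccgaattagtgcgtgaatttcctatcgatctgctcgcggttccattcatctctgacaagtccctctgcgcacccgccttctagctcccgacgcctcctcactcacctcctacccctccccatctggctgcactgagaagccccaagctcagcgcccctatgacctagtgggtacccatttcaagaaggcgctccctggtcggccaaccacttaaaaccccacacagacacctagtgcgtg
CCAAT, on the strand opposite to the one printed (read there as ATTGG), has 1 match in Hoxa5, 204 bases before the start. It also has 1 match on that strand in Hoxa10, 64 bases before the start. TATAAA has 1 match, also opposite to the printed strand (read as TTTATA), in Hoxa10, 160 bases before the start. The Hoxa9 and Hoxb4 windows hold none of the 5 motifs, nor do the Hoxa7 window and the farther Hoxa10 window, which are not shown. Over all 32851 windows of this length CCAAT was found in 33.8%, TGACAG in 15.9%, TATAAA in 12.4%, TGATNNAT in 7.68% and CACGTG in 6.02%. The windows also differ in CpG pairs, with 28 in Hoxa5, 20 in the Hoxa10 window shown, 14 in Hoxb4 and 3 in Hoxa9. The Hoxa7 window and the farther Hoxa10 window held 7 each, and the median over all windows was 6. No motif of the 5 was found in all of these windows.

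Few member and cluster pairs passed a threshold of size. A gene was called when the deposited log2 fold change of a cluster against all other cells was at least 0.5 in size and the deposited adjusted p, a test over cells, was under 0.05 (the size rule). Of 90 pairs of member and cluster (clusters 0 to 9), 1 was called higher and 2 were called lower, and of the 54 pairs in clusters 0 to 5 none was called. Over all genes with a count in the cluster, the rule called 2.42%, 0.125%, 3.06%, 0.713%, 0.391%, 0.143%, 0.0552%, 2.19%, 2.87% and 1.5% higher, from cluster 0 to cluster 9. It called 6.2%, 1.59%, 2.7%, 1.39%, 0.836%, 0.941%, 14.4%, 11.3%, 4.19% and 2.09% lower in the same order. These shares are also the background for later counts of calls in gene and marker lists. The members' calls were 2 of 9 on the low side of cluster 6, the cluster with the highest such share over all genes, and 1 of 9 on the high side of cluster 9. Within clusters 0 to 5 the largest log2 fold of a member in the authors' deposited tables was 0.42 in size. Across those 6 clusters the folds of a member spanned 0.17 (Hoxa7) to 0.69 (Hoxb6), with a median of 0.50. The median span of the 8534 genes at or above the median level was 0.30. Here and below, spans include counting error, which is larger for genes of lower level, and the 8534 genes were not matched to the members' levels. The heatmap of deposited folds shows the size and direction in each cluster.

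**Figure D1:**
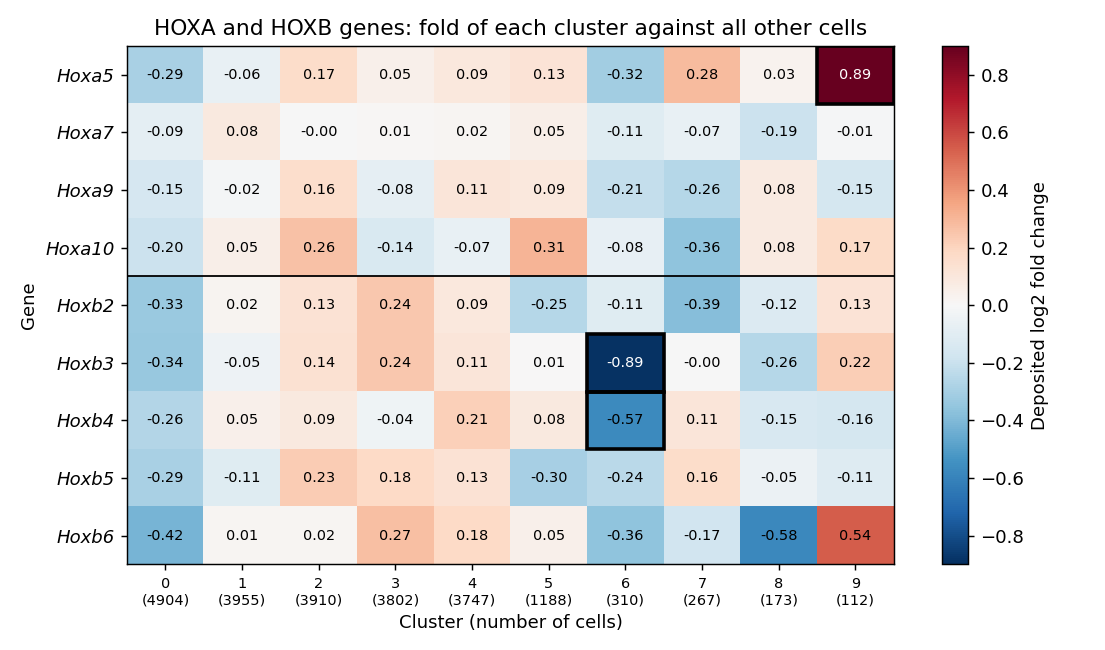
Deposited log2 fold change of each member (rows) in clusters 0 to 9 (columns, with the number of cells) against all other cells; red is higher and blue is lower, and a black frame marks the 3 pairs past the size rule. All 9 members lie below 0 in cluster 0, and the framed pairs are Hoxa5 in cluster 9 and Hoxb3 and Hoxb4 in cluster 6.

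To compare clusters directly, each gene's level was rebuilt from its mean over all cells, its fold and the cluster's share of cells, and is given below as counts per 10000 or relative to the mean of all cells, with a 95% Poisson interval (exact) for a total of that level times the number of cells. The interval assumes 10000 counts per cell, covers counting error only, and says nothing of differences between mice. Fewer cells that express a gene and less RNA per cell cannot be told apart. Levels per 10000 are compared within a gene and not between genes; values set side by side for different genes are relative to each gene's own mean. Over the 9 members there were 135 pairs of clusters within 0 to 5, and in 61 of them the intervals did not overlap. Such pairs were not counted over all genes, so whether these counts, here or by member below, are unusual was not tested. Cluster 0 was part of 34 of these 61. Of 45 neighbours in the order of levels, 38 overlapped, so the exact order of adjacent clusters was mostly within counting error.

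**Figure D2:**
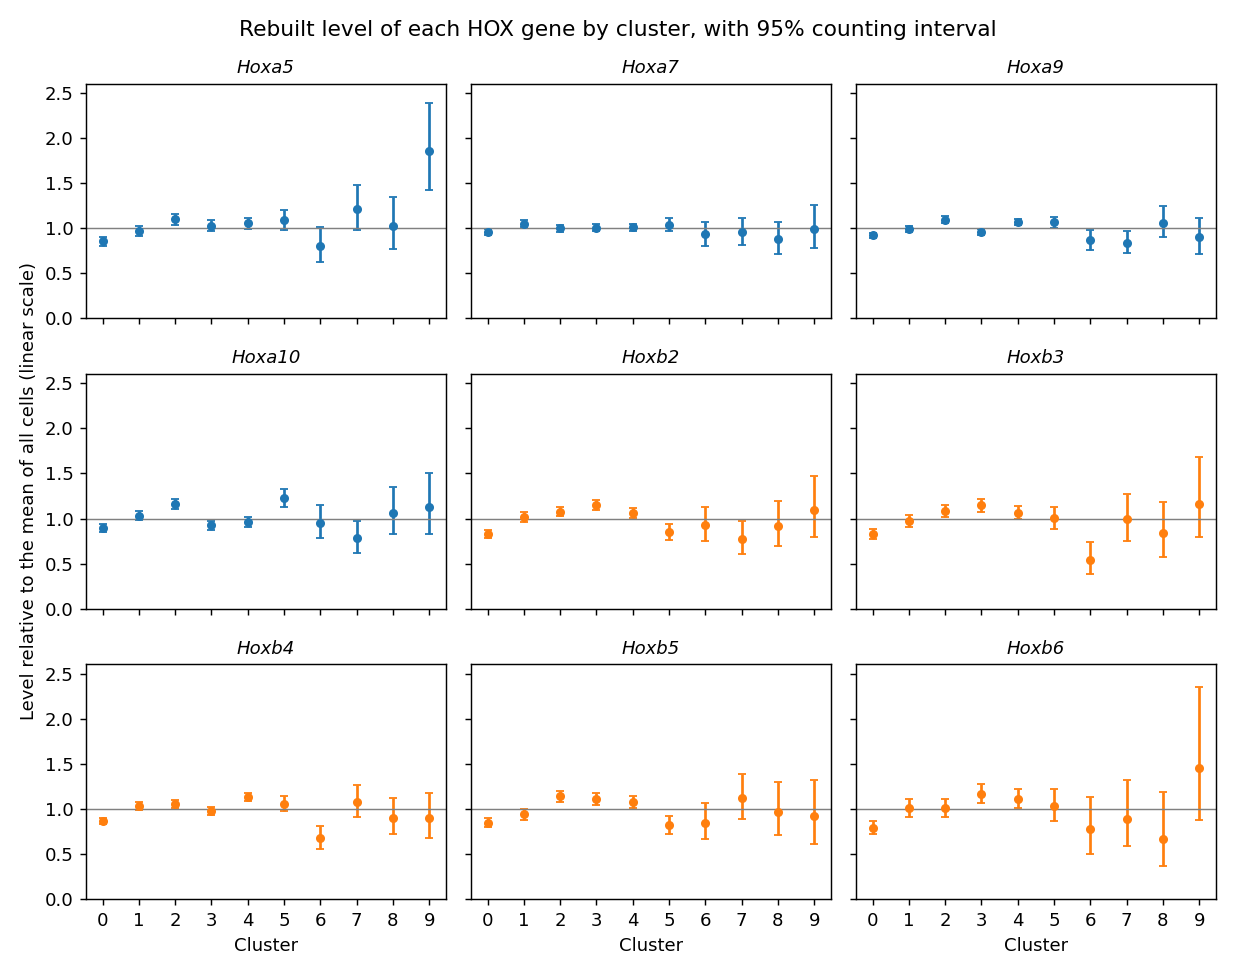
Level of each member in clusters 0 to 9 relative to the mean of all cells (linear scale, grey line at 1); points are rebuilt levels, bars are 95% Poisson counting intervals, blue is HOXA and orange is HOXB. Cluster 0 lies below 1 for all 9 members, from 0.79 for Hoxb6 to 0.95 for Hoxa7, and the intervals widen in clusters 6 to 9, which hold few cells.

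In cluster 0 all 9 members lay below the rest of the cells, and the median of the HOXB members was lower than that of the HOXA members. In the authors' deposited table their log2 folds ran from -0.42 to -0.09 with a median of -0.29, against 0.01 over all genes. The median was -0.17 for the 4 HOXA members and -0.33 for the 5 HOXB members in the authors' deposited table. All 9 members were under the adjusted p of 0.05 without reaching the fold minimum, a rule that 18.3% of genes with a count passed on the low side there and 21.1% of genes at or above the median level. Of the latter genes, 42.7% had a fold below 0. The same cluster had the lowest summed level of long-term HSC markers among clusters 0 to 5 (13.3 against 17.3 to 21.0 per 10000 counts), with 5 of 10 markers called lower, and the highest of 6 megakaryocyte markers (2.45 against 1.47 to 1.90), with 5 of 6 called higher and none without a count. In the 173 cells of cluster 8, 5 of 10 long-term HSC markers were also called lower, while the megakaryocyte markers summed to 1.38. The members' median there was -0.12 against 0.13 over all genes in the authors' deposited table. Of the 9 members 3 were above 0 there and none passed the adjusted p. The part of these marker differences in the HOX values was not tested.

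In cluster 2 the members lay on the other side. Of the 9, 8 were above 0 (median 0.14 against 0.02 over all genes in the authors' deposited table), and Hoxa7 was at 0.00. Of genes at or above the median level, 55.4% were above 0 there. By the adjusted p alone 6 were higher, Hoxa5, Hoxa9, Hoxa10, Hoxb2, Hoxb3 and Hoxb5, where 16.6% of genes with a count and 24.3% of those at or above the median level were. Long-term HSC markers were at their highest there, with 4 of 10 called higher and none lower. Of 6 megakaryocyte markers 3 were called lower and none higher, with a median of -0.57 in the authors' deposited table and a summed level of 1.47 per 10000 counts. The part of both lists in the HOX values was not tested. Since cluster 0 is part of the rest that cluster 2 is compared with, and the reverse, the 2 sets of folds are not independent.

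Cluster 3 set the HOXB members apart from the HOXA members. The HOXB median was 0.24 and the HOXA median -0.03 in the authors' deposited table. By the adjusted p alone Hoxb2, Hoxb3, Hoxb5 and Hoxb6 were higher, where 8.51% of genes with a count (14.1% at or above the median level) were, and Hoxa10 was lower, where 7.15% were. Hoxb4 did not follow its neighbours on the chromosome: its relative level was 0.98 (0.94 to 1.02), below the intervals of Hoxb3 at 1.15 (1.08 to 1.22) and Hoxb5 at 1.11 (1.05 to 1.17). In cluster 4 the median was 0.11, with 8 of 9 above 0, where 51.4% of genes at or above the median level were. Hoxa9 and Hoxb4 were higher by the adjusted p alone, where 11.3% of genes with a count (19.3% at or above the median level) were. In cluster 1 the members lay between -0.11 and 0.08, and none passed either rule.

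Cluster 5 split the family differently. Hoxa10 was higher by the adjusted p alone, where 1.3% of genes were, while Hoxb2 and Hoxb5 were lower, where 2.11% were. The relative level was 1.22 (1.12 to 1.33) for Hoxa10, 0.85 (0.76 to 0.94) for Hoxb2 and 0.82 (0.73 to 0.93) for Hoxb5, so the interval of Hoxa10 lay above 1 and the others below it. Hoxb3, Hoxb4 and Hoxb6, which lie between or beside those HOXB genes, were at 1.00, 1.06 and 1.03 with intervals that include 1.

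Hoxa9, the central HOXA gene of progenitor growth and leukaemia, had its highest level in cluster 2. From cluster 0 to cluster 5 its level was 0.797, 0.858, 0.947, 0.828, 0.924 and 0.921 counts per 10000. Clusters 2, 4 and 5 were high and clusters 0 and 3 low, with no overlap of intervals between cluster 2 (0.917 to 0.979) and cluster 0 (0.773 to 0.823). The spread from highest to lowest was 1.19-fold. In the small clusters it was 0.748, 0.727, 0.916 and 0.778 in clusters 6 to 9.

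Hoxa10, which acts beside Hoxa9 and favours progenitor expansion when forced on, was at 0.332, 0.381, 0.429, 0.342, 0.356 and 0.453 counts per 10000 in clusters 0 to 5. Clusters 5 and 2 stood above the other 4 without overlap of intervals, a wider separation than for Hoxa9, and the highest was 1.36-fold over the lowest. Hoxa7 was the flattest member. Its level was 0.632, 0.696, 0.662, 0.667, 0.670 and 0.686 in clusters 0 to 5, and cluster 1 over cluster 0 was the only pair of the 15 whose intervals did not overlap. Only 14.3% of genes at or above the median level had a narrower span of folds.

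Hoxa5, which encodes an activator of the p53 gene, was at 0.2499, 0.283, 0.322, 0.301, 0.309 and 0.318 counts per 10000 in clusters 0 to 5. Cluster 0 lay below the other 5 without overlap. Its largest value was in the 112 cells of cluster 9, at 0.542 (0.417 to 0.700), a total of 61 scaled counts. That was 1.85 times the mean of all cells and the only pair called higher, with a log2 fold of 0.89 in the authors' deposited table, or 0.85 after subtracting the median of all genes. That interval overlapped the interval of cluster 7, whose level was 0.356, and lay above those of clusters 0 to 6 and 8. Its long-term HSC markers summed to 17.8 per 10000 counts, within the range of clusters 1 to 5, and no marker list had a call there. The intervals of clusters 7 (0.288 to 0.435) and 8 (0.224 to 0.394) overlapped those of most large clusters.

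Hoxb4, the gene whose forced expression expands HSCs, was at 0.463, 0.551, 0.564, 0.524, 0.605 and 0.566 counts per 10000 in clusters 0 to 5. Cluster 4 was highest and stood apart from clusters 0, 1 and 3, and cluster 0 stood below all others of the 6. In the 310 cells of cluster 6 it was lower still, at 0.362 (0.297 to 0.435), a log2 fold of -0.57 in the authors' deposited table that passed the size rule. The median gene of that cluster was itself at -0.23, and after subtracting it Hoxb4 was at -0.34, short of the fold minimum.

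Hoxb3, whose forced expression disturbs lymphoid development, had the lowest relative level of any member in clusters 0 to 9. Its level was 0.188, 0.221, 0.246, 0.261, 0.242 and 0.228 counts per 10000 in clusters 0 to 5 and 0.124 (0.0867 to 0.168) in cluster 6, a total of 38 scaled counts. Cluster 6 lay below all 6 large clusters without overlap, with a log2 fold of -0.89 in the authors' deposited table and -0.65 after subtracting the median gene. In cluster 6 all 9 members were below 0, but their median of -0.24 equalled that of all genes to within 0.01, and 4 of 10 long-term HSC markers were called lower there. Erythroid markers were at their highest in that cluster (10.9 per 10000 counts against 2.02 to 3.65 in the other clusters of 0 to 9), with 5 of 6 above 0, 1 called higher and Car1 without a count. The part of these shifts in the HOX values was not tested.

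Hoxb5, the long-term HSC reporter gene, was at 0.233, 0.257, 0.312, 0.303, 0.295 and 0.225 counts per 10000 in clusters 0 to 5. It fell into 2 levels: clusters 2, 3 and 4 overlapped each other, and each stood above clusters 0, 1 and 5. Cluster 5 was lowest, while for the other 8 members the lowest of the 6 was cluster 0. For Hoxb5 the intervals of cluster 5 (0.199 to 0.253) and cluster 0 (0.219 to 0.247) overlapped, so their order was within counting error. Hoxb2, a segment identity gene of the hindbrain, was at 0.298, 0.364, 0.386, 0.412, 0.379 and 0.303 in the same order. Clusters 0 and 5 were again low and cluster 3 was high. For each of Hoxb2 and Hoxb5, 9 of 15 pairs did not overlap, a count not made over all genes.

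Hoxb6 was at 0.0856, 0.109, 0.109, 0.126, 0.120 and 0.112 counts per 10000 in clusters 0 to 5. Its spread of 1.47-fold was the widest of the 9 over these clusters, but its log2 mean level of -3.21 was the lowest of them. Spread includes counting error, which is larger at lower levels. Cluster 0 stood below clusters 1 to 4. In clusters 6 to 9 it rested on 26, 26, 13 and 18 scaled counts, so the log2 folds of -0.58 for cluster 8 and 0.54 for cluster 9 that the authors' deposited tables give came with intervals of 0.37 to 1.19 and 0.88 to 2.35 around the mean of all cells and were not called.

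The other HOXB genes lay on the same side of 0 as most HOXB members in clusters 0 and 3, with larger folds. Hoxb7, Hoxb8 and Hoxb9, the neighbours of Hoxb6 on the side away from Hoxb5, described together after their values were seen, had log2 folds of -0.90, -0.45 and -1.23 for cluster 0 and of 0.56, 0.63 and 0.60 for cluster 3 by the authors' deposited tables. Hoxb7 and Hoxb9 were called lower in cluster 0, where 6.2% of genes with a count were. All 3 were called higher in cluster 3, where 0.713% of genes with a count were. No member was called in either cluster. These 3 genes were detected at log2 mean levels of -4.68, -2.38 and -4.24 and rested on 114 (Hoxb7) to 1034 (Hoxb8) scaled counts in those 2 clusters. In cluster 2 Hoxb9 was called higher (0.52), while Hoxb8 lay at -0.18 in the authors' deposited table. In the HOXA cluster Hoxa6 was called lower in cluster 0 (-0.67) and higher in cluster 4 (0.62), and Hoxa3 was at -0.38 and 0.20 there in the authors' deposited tables. Of all 14 other HOX protein genes 4 were called lower and none higher in cluster 0, and 3 were called higher with none lower for cluster 2. Over all genes with a count, 6.2% were called lower and 2.42% higher in cluster 0. In cluster 2 the shares were 3.06% higher and 2.7% lower. Only 2 of these 14 genes lay at or above the median level of all genes, and the shares were not matched for level. The HOXC calls in these 2 clusters were Hoxc8 at -1.37, Hoxc6 at 0.62 and Hoxc10 at 1.92 in the authors' deposited tables, and Hoxc8 and Hoxc10 rested on 5 and 15 scaled counts. Elsewhere Hoxc9 was called lower in cluster 3 (-1.85, on 3 scaled counts), Hoxa3 (-0.62) and Hoxa6 (-1.26) in cluster 6, and Hoxa6 (-1.16) and Hoxb8 (-0.82) in cluster 8 of the authors' deposited tables.

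**Figure D3:**
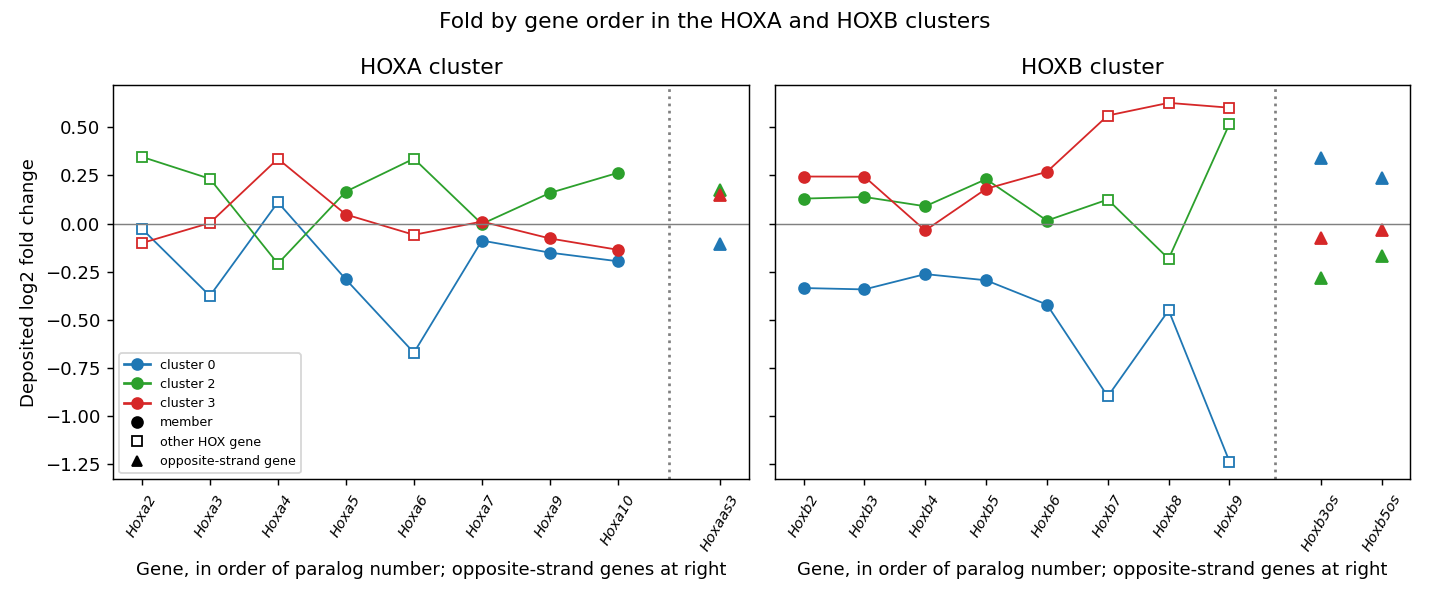
Deposited log2 fold change in clusters 0 (blue), 2 (green) and 3 (red) for genes in order of paralog number along the HOXA (left) and HOXB (right) clusters; filled circles are members, open squares other HOX genes, and triangles genes on the opposite strand. In HOXB the folds of clusters 0 and 3 lie farther apart at Hoxb7 to Hoxb9 than at Hoxb2 to Hoxb6, and Hoxb3os and Hoxb5os lie above 0 in cluster 0 where all 8 HOXB protein genes lie below it.

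In cluster 0 the opposite-strand transcripts of the HOXB cluster lay above the mean of all cells while the genes they overlap lay below it. Hoxb3os (chromosome 11, 96343072 to 96354691, minus strand), which overlaps Hoxb2 and Hoxb3, was at a relative level of 1.20 (1.11 to 1.29) in cluster 0 and 0.85 (0.77 to 0.94) in cluster 2. Hoxb2 and Hoxb3 were at 0.83 and 0.83 in cluster 0 and at 1.08 and 1.08 in cluster 2. Hoxb5os (chromosome 11, 96291024 to 96306910, minus strand), which overlaps Hoxb5 and Hoxb6, was at 1.13 (1.03 to 1.24) in cluster 0, where Hoxb5 was at 0.85 and Hoxb6 at 0.79. In cluster 2 Hoxb5os was at 0.91 with an interval of 0.80 to 1.02 that includes 1. Neither transcript was called in clusters 0 to 5, while Hoxb3os (-0.66) was called lower in cluster 6 and Hoxb5os (-0.84) in cluster 7 of the authors' deposited tables. The opposite sides did not hold in cluster 6, where Hoxb3 was called lower too and where Hoxb5os (-0.60), Hoxb2, Hoxb5 and Hoxb6 were also below 0 in the authors' deposited table. The HOXA opposite-strand gene Hoxaas3 was at 0.94 (0.80 to 1.11) and 1.10 (0.93 to 1.30) in clusters 0 and 2, and Hotairm1, a non-coding RNA of the HOXA cluster, at 1.02 (0.90 to 1.15) and 1.01 (0.88 to 1.16), so neither was set apart from the mean. Unless counting used strand, which these sources do not state, reads of a gene and its opposite-strand partner cannot be told apart.

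HOX cofactor genes gave few calls. Of 8 measured, Pbx4 (0.56) was called higher in cluster 0 and Meis2 (-0.90) and Meis3 (-0.78) lower, and Meis2 (0.71) was called higher for cluster 2 by the authors' deposited tables. No cofactor was called in clusters 1, 3, 4 and 5. Meis1, the partner of Hoxa9 in leukaemia, was at 0.03 for cluster 0 and -0.14 for cluster 2 in the authors' deposited tables. The cofactor median was -0.03 in cluster 0, where the members' median was -0.29.

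Among 19 MLL and menin complex genes, which keep HOX clusters active, only Mllt3 was called in clusters 0 to 5. It encodes a reader of acetylated and crotonylated histones and had folds of -0.78 (cluster 0) and 0.65 (cluster 2) by the authors' deposited tables, the same sides as the members. Mllt3 is also 1 of the 10 long-term HSC markers. Kmt2a, the MLL methyltransferase gene itself, was at -0.35 and 0.38, and Men1 at -0.15 and 0.14 in those tables, neither called. The list's medians were -0.07 and 0.05. Of 26 Polycomb genes and related demethylases, Phf19 (-0.83) and Cbx6 (-0.53) were called lower in cluster 0 and higher (0.76 and 0.52) for cluster 2 by the authors' deposited tables. Ezh2, the methyltransferase of Polycomb complex 2, was at 0.34 and -0.18, while its homologue Ezh1 was at -0.46 and 0.26 in those tables. The list's medians of 0.02 and 0.06 lay beside 0.01 and 0.02 over all genes.

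Caudal and retinoid regulators, which set HOX boundaries in the embryo, had 10 of 16 genes measured. The retinoic acid degrading enzyme gene Cyp26b1 was called lower in cluster 0 (-1.42) and higher in clusters 2 (0.76) and 5 (0.58) in the authors' deposited tables. The retinoid receptor genes Rarb and Rxra (both -0.54) were called lower in cluster 0, and Aldh1a1 (-0.76), a retinaldehyde dehydrogenase gene, was called lower in cluster 2 in those tables. Of 18 measured genes reported downstream of HOXA9, HOXB4 and MEIS1, 6 were called higher and 2 lower in cluster 0, and 1 was called higher and 5 lower in cluster 2. Over all genes with a count, 2.42% were called higher and 6.2% lower in cluster 0. In cluster 2 the shares were 3.06% higher and 2.7% lower. Flt3 (0.66), Sox4 (0.62), Cd34 (0.92), Myc (0.52), Cdk6 (1.39) and Syk (0.77) were the higher ones, and Id2 (-0.89) and Gfi1 (-1.34) the lower ones, of cluster 0 in the authors' deposited table. In cluster 2 Flt3, Sox4, Cd34, Cdk6 and Syk were called lower and Gfi1 (0.75) higher in the authors' deposited table. In clusters 3 and 4 the list had 1 call each, Cdk6 (-0.55) and Erg (0.51) in the authors' deposited tables. Most called genes of this list thus lay on the opposite side of 0 from the HOX members in clusters 0 and 2, and Gfi1 and Id2 on the same side in cluster 0. The list was not split into genes reported as activated and as repressed, so neither side was predicted for it. This side-by-side reading of 2 clusters that share their comparison cells is no test of regulation.

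**Figure D4:**
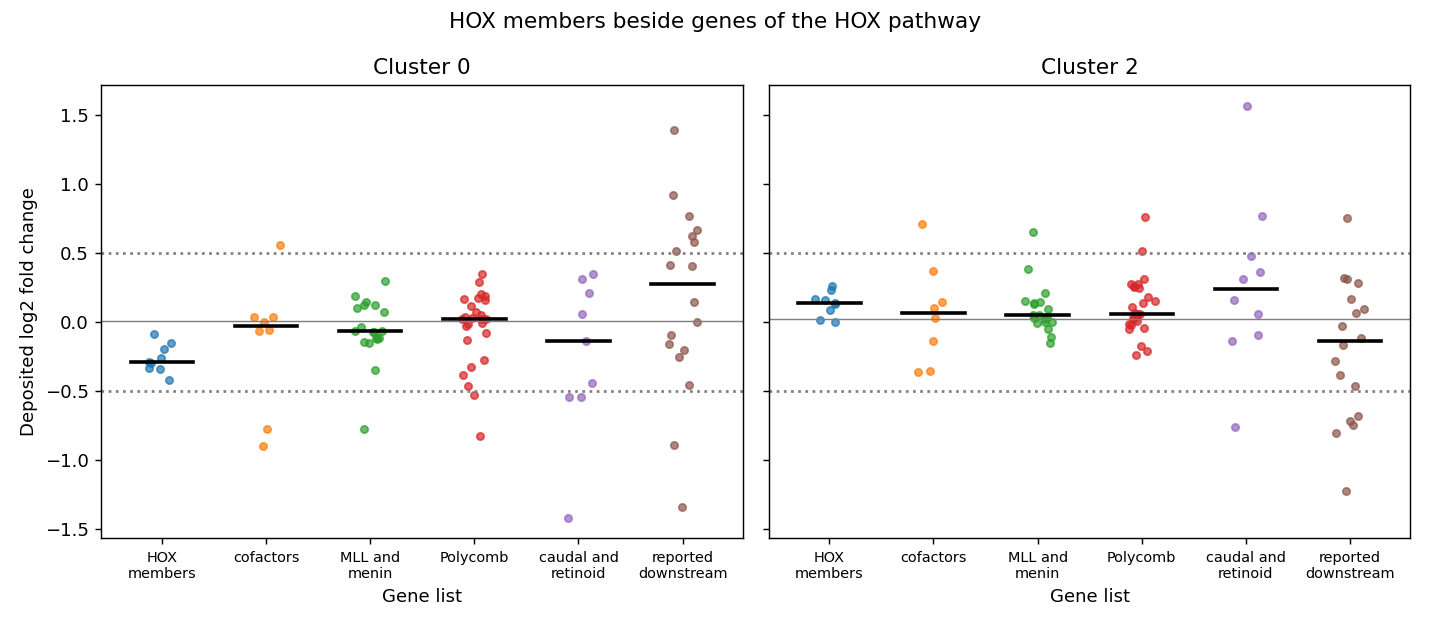
Deposited log2 fold change of the HOX members and of 5 gene lists in clusters 0 (left) and 2 (right); each point is 1 gene with a count in the cluster, black bars are medians, the grey line is the median of all genes and dotted lines mark 0.5 and -0.5. The 9 members sit close together, below 0 in cluster 0, while the reported downstream genes spread from Gfi1 at -1.34 to Cdk6 at 1.39.

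By likeness of folds over clusters 0 to 9 (10 points per gene, 8525 genes at or above the median level), the genes nearest to the mean of the 4 HOXA members were Foxo1 (Pearson r = 0.95), Tapbpl (0.91), Tmem140 (0.91), Ift74 (0.91) and Slc31a2 (0.90). Nearest to the mean of the 5 HOXB members were Crebl2 (0.96), Ormdl3 (0.96), Ampd3 (0.95), Mylk (0.94) and Snx18 (0.94). For Hoxb5 alone they were Fgd5 (0.89), a gene used to mark HSCs and 1 of the 10 markers above, Spire1 (0.88), Sash1 (0.86), Mycn (0.85) and Zfyve21 (0.84). The folds of Fgd5 were wider than those of Hoxb5, at -0.69 for cluster 0 and 0.52 for cluster 2 by the authors' deposited tables. The 3 lists share no gene. In cluster 9 Hoxa5 was at 0.89, Hoxa7 at -0.01, Hoxa9 at -0.15 and Hoxa10 at 0.17 in the authors' deposited table. The HOXA mean there thus does not stand for each member, and likeness to single HOXA members was not computed. The points share cells and sequencing depth, and the highest of 8525 values over 10 points is high by selection.

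The deposited pathway tables hold 1 set named for HOX genes, the Reactome set on activation of anterior HOX genes in hindbrain development. From cluster 0 to cluster 9 its log2 folds were -0.01, -0.04, 0.01, 0.01, 0.06, 0.01, -0.27, -0.10, 0.09 and 0.11 in the authors' deposited pathway tables. The medians over 2910 sets were 0.02, -0.03, 0.01, -0.00, 0.01, -0.01, -0.21, -0.10, 0.09 and 0.04 in the same order, so the lowest value, in cluster 6, stood beside the lowest median. These are folds of a pathway score, a different measure from the members' folds, so they are not set against each other. The genes of the set and the way cells were scored for it were not analysed here.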

How the data were processed

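RNA of sorted HSCs from 6 single-mouse libraries was profiled by droplet single-cell sequencing. Per the submitters' processing notes, the authors used Scanpy and the mm10 build; the sources used here do not give the aligner, cell filters, doublet handling or test. The authors deposited 11 gene tables and 11 pathway tables, each setting 1 cluster against the remaining cells. From the values, the deposited mean level is a log2 mean over cells whose counts were each scaled to 10000. The deposited fold change is in log2 units, and under -10 it marks a gene without a count. The deposited p-value and adjusted p-value treat cells as replicates and served only as a filter. The pathway tables' deposited score, a signed statistic over cells, was not used; their log2 fold was.

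Cluster sizes were solved from deposited p-values of 19 genes held by 1 cell (Welch statistic of 1; whole within 0.02).  Relative level was fold / (share x fold + 1 - share); over clusters it averaged 1.00 for each member. The fold compares back-transformed means of log values and the mean level is arithmetic, so rebuilt levels are approximate. The solving of cluster sizes and the rebuilding of levels were tested on simulated Poisson counts. The simulated cells did not differ in depth and were not scaled, unlike these data. The error allowed in a rebuilt level was not small beside most member folds, and the Poisson intervals were not tested. Python 3.11.15, pandas 2.3.3, numpy 2.4.6 and scipy 1.17.1 were used. Gene models were GENCODE M21 and promoters RefSeq GRCm38.p6.

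Named were all 9 members, other HOX genes with a call, list genes called in clusters 0 to 5 with known partners, and the 5 nearest genes by Pearson r. Members, lists and rules were chosen with earlier results of these data known. Meis1, Kmt2a, Men1, Ezh1, Ezh2 and Fgd5 were named for their known role after their values were seen. Alternatives were other fold and p thresholds, centring, a level filter, other gene or cluster sets, and folds against clusters 0 to 5 alone. Use of the adjusted p alone was chosen after seeing the data. Cluster 10 (10 cells) was left out of counts.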

Additional observations from a re-analysis of the deposited data

How the results depend on the processing

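The count of calls depended on the fold minimum, as few member folds were large. Against 1 higher and 2 lower pairs in clusters 0 to 9, a minimum of 0.25 gave 4 higher and 10 lower, a minimum of 1 gave 0 and 0, and the adjusted p alone, chosen after seeing the data, gave 14 and 14. Shares of all genes at minima of 0.25 and 1 were not computed, so these counts show only dependence on the threshold. By the adjusted p alone, 18.3% of genes with a count were lower in cluster 0 and 16.6% higher in cluster 2. Counting all 23 HOX protein genes gave 8 higher and 11 lower, and clusters 0 to 5 alone gave 0 and 0. Centring on the median of all genes left 1 lower pair, because Hoxb4 in cluster 6 moved to -0.34. An adjusted p under 0.01 left both counts as they were. The filters on level and on genes without a count removed no member and so test nothing. Centring moved the members' median fold from -0.24 to -0.01 in cluster 6, from -0.12 to -0.25 in cluster 8 and from 0.32 to -0.05 in cluster 10, and kept its sign in clusters 0 to 5. The mean in place of the median gave -0.00 for 0.01 in cluster 1, 0.08 for 0.05 in cluster 3 and 0.02 for 0.05 in cluster 5. The moves to the mean are within the counting interval of the single middle gene. Centring subtracts the same value from every gene of a cluster, so its moves are not counting error. The members' median in clusters 6, 8 and 10 thus depended on centring. All 54 member folds of clusters 0 to 5 moved by less than their counting error when recomputed against those clusters only (largest move 0.02). No paired analysis was possible because each group is 1 mouse and the tables pool the libraries. Depth limits clusters 6 to 9, where Hoxb6 rests on 13 to 26 scaled counts.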
